A study of Mus musculus with 6 samples.

Results

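The 10 genes described here encode the MHC class II antigen presentation machinery of the mouse: the peptide-binding chains H2-Aa, H2-Ab1 and H2-Eb1, the invariant chain Cd74, the peptide editor chains H2-DMa, H2-DMb1 and H2-DMb2, the editor's inhibitor chains H2-Oa and H2-Ob, and the transactivator Ciita. They were chosen by symbol from the 38854 genes of the deposited table, and each of the 10 had 1 transcript cluster on the array. Their levels were compared between regulatory T cells (Treg) of the liver and Treg of the spleen.

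The 6 arrays were 3 of liver Treg, numbered 2, 3 and 7 in the labels, and 3 of spleen Treg, numbered 4, 5 and 6. All samples came from Foxp3-GFP mice, in which a fluorescent reporter marks the Treg transcription factor Foxp3, and all mice had received a complex of IL-2 and an anti-IL-2 antibody, a treatment that expands Treg, daily for 3 days and then none for 3 days. No untreated or diseased sample carries a label, and the labels give no age, sex or strain. The labels name both fluorescence sorting and magnetic isolation, and say neither whether arrays came from separate mice nor whether a liver and a spleen sample shared one, so p-values measure array-to-array spread alone, and this spread may be technical.

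MHC class II molecules carry peptides from the endosomes to the cell surface, where CD4 T cells read them. Dendritic cells, B cells and macrophages make the most, under the control of Ciita, which is recruited to paired promoter elements called the X and Y boxes by the factors RFX and NF-Y. The invariant chain fills the peptide groove until endosomal proteases cut it down, H2-DM then exchanges the remaining fragment for antigen peptides, and H2-O restrains H2-DM. Mouse T cells are known to make little class II themselves and can take up class II protein from presenting cells.

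The promoter letters of the members show which of them match a consensus of the shared elements closely. RefSeq promoter windows (assembly GRCm38.p6, 250 bases before to 50 after an annotated start) matched 7 members with 8 windows. The set of windows searched held none for H2-Ab1, Cd74 and Ciita, so their promoters were not examined. Each line below runs 5′ to 3′ on the gene's strand and is placed so that the Y box, ATTGG, falls in the same column, with the Y box in capitals and the X box in capitals where it had at most 1 mismatch.
H2-Aa: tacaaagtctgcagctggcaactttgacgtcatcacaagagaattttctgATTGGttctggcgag
H2-Eb1: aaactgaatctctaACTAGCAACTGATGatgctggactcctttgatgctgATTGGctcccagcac
H2-DMb1: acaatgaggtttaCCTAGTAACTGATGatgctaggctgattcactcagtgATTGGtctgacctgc
H2-DMb2: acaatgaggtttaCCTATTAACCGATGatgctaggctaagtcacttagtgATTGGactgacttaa
H2-Oa: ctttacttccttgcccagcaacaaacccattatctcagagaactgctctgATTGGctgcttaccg
H2-Ob: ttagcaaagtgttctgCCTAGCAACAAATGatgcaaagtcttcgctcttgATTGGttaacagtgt
These stretches lie at chr17:34287857-34287921 (minus strand) for H2-Aa, chr17:34305758-34305822 for H2-Eb1, chr17:34153080-34153144 for H2-DMb1, chr17:34145109-34145173 for H2-DMb2, chr17:34092286-34092350 for H2-Oa and chr17:34238798-34238862 for H2-Ob, the last 5 on the plus strand.

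The X box was searched as CCNNGNN followed directly by ACNGATG, with 9 fixed letters, and the Y box as ATTGG, both on either strand; the 2 motifs do not overlap each other. H2-DMb1 matched the X box with no mismatch, and H2-Eb1, H2-DMb2 and H2-Ob with 1. In these 4 genes the X box ended 20 to 23 bases before the Y box. Such a pair, with a gap of 18 to 25 bases, was found in 23 of 32851 promoter windows (0.07%), in contrast to 37.4% of windows with ATTGG alone and 6.13% with an X box of at most 1 mismatch. Of the 23 windows, 4 belonged to members, and H2-Eb2 and the class I genes H2-D1, H2-Q4, H2-Q6, H2-Q7 and H2-M3 had the pair as well; the others belonged to genes outside the family. At the same spacing H2-Oa had 3 mismatches and H2-Aa 5. Of the 2 windows of H2-DMa, 1 had a Y box, far from its start, with 5 mismatches in the X box at this spacing, and the other had none. These matches describe letters within the windows only, and an X box that departs further from this consensus would be missed.

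**Figure D1:**
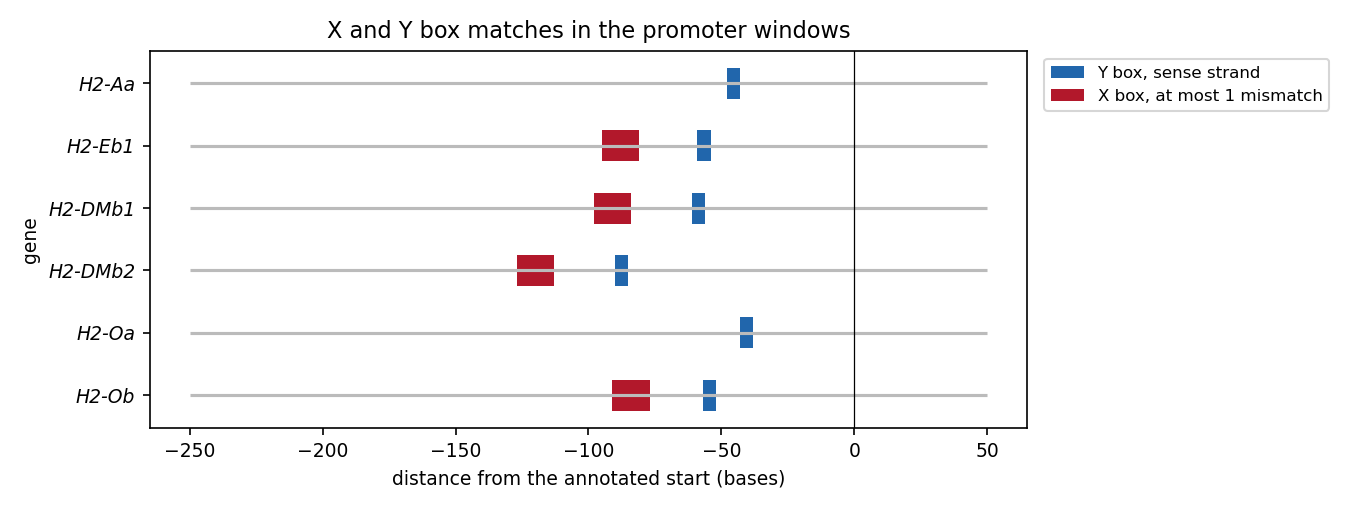
Positions of the Y box (ATTGG on the gene's strand, blue; 1 more match on the opposite strand of H2-Eb1 is not drawn) and of the X box with at most 1 mismatch (red) in the promoter windows of 6 members, by distance in bases from the annotated start. H2-Eb1, H2-DMb1, H2-DMb2 and H2-Ob show the pair 20 to 23 bases apart. H2-Aa and H2-Oa show the Y box without an X box of at most 1 mismatch to the consensus searched. H2-DMa has no Y box near its start and is not drawn.

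The chains that form the surface class II molecule and the invariant chain had their highest signals on liver arrays 2 and 3, while Ciita, H2-DM and H2-O differed little between the organs. None of the 10 members passed limma at an adjusted p of 0.05 over all genes, a threshold passed by 8 of 38854 genes (0.0206%), of which 4 were higher in liver (0.0103%). With array weights, which limma estimates from each array's fit, 5 members passed, in a fit that called 9.09% of all genes. At an unadjusted p under 0.05, 4 of the 10 members were higher in liver, where 2.09% of all genes were, and none was lower, where 1.68% of all genes were. In 3 members, H2-Aa, H2-Ab1 and Cd74, all liver arrays lay above all spleen arrays, a pattern seen in 3.11% of all genes. The median liver minus spleen difference over the 10 members was 0.23 on the log2 scale, beside -0.02 over all genes, and 9 members had a positive difference, beside 42.3% of all genes. Leaving out spleen array 6 gave a median of 0.152, and leaving out spleen array 5 gave 0.374.

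**Figure D2:**
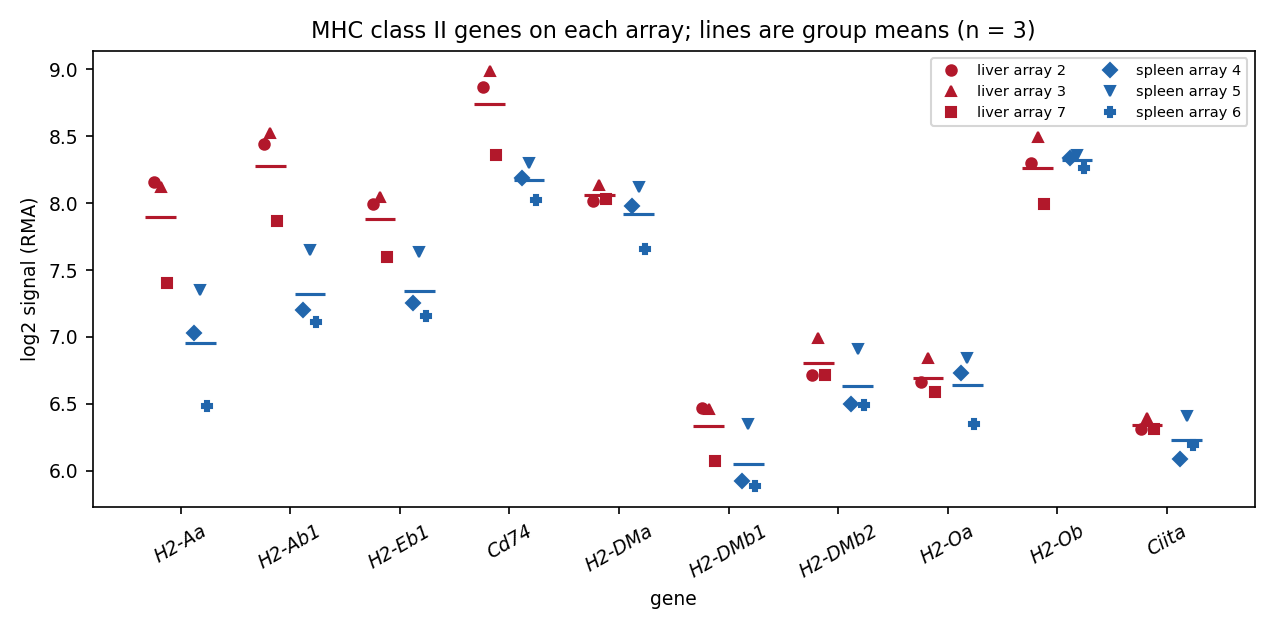
Log2 signal of each class II gene on the 6 arrays, liver in red and spleen in blue, 1 symbol per array and a line at each group mean. Liver arrays 2 and 3 stand apart in H2-Aa, H2-Ab1, H2-Eb1 and Cd74, with liver array 7 between them and the spleen arrays or within these, whereas the groups overlap in the other 6 genes.

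H2-Ab1 encodes the beta chain of the I-A molecule. It measured 8.44, 8.52 and 7.87 on liver arrays 2, 3 and 7, and 7.20, 7.65 and 7.11 on spleen arrays 4, 5 and 6. The groups did not overlap, but liver array 7 lay nearer to spleen array 5 than to the other liver arrays. The liver mean was 8.28 ± 0.36 and the spleen mean 7.32 ± 0.29 (SD, n = 3 each), which is a 1.94-fold ratio (log2 difference 0.95, SE 0.18, 95% confidence interval 0.56 to 1.35, limma adjusted p = 0.2065). Only 26 of the 38854 genes had a larger positive difference. Without liver array 7 the difference was 1.16 and passed (limma adjusted p = 0.0483), as 0.0849% of all genes did, and its adjusted p ran from 0.000554 to 0.59 over 17 alternatives, the lowest with array weights.

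H2-Aa encodes the alpha chain that pairs with this beta chain. It measured 8.16, 8.12 and 7.40 in liver and 7.03, 7.35 and 6.48 in spleen, in the same order of arrays. Liver array 7 exceeded spleen array 5 by a margin small beside the spread within either group, and spleen array 6 was the lowest. The log2 difference was 0.94 (SE 0.23, 95% confidence interval 0.45 to 1.43, limma adjusted p = 0.365), a 1.92-fold ratio. With group SDs of 0.43 in liver and 0.44 in spleen, H2-Aa was the most variable member within each organ.

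H2-Eb1, the beta chain of the second class II molecule, I-E, measured 7.99, 8.05 and 7.60 in liver and 7.25, 7.63 and 7.16 in spleen. Here the groups overlapped, since spleen array 5 lay above liver array 7. Its difference of 0.53 (SE 0.15, 95% confidence interval 0.20 to 0.87, limma adjusted p = 0.576) corresponds to a 1.45-fold ratio. The alpha chain gene of I-E, which the table lists as the pseudogene H2-Ea-ps, measured 5.38, 5.49 and 5.41 in liver and 5.46, 5.73 and 5.34 in spleen, with spleen array 5 the highest. The H2-b haplotype of strains such as C57BL/6 is known to lack a working I-E alpha chain, but no label gives the haplotype of these mice.

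Cd74, the invariant chain that guides class II molecules to the endosome, measured 8.87, 8.98 and 8.36 in liver and 8.19, 8.30 and 8.03 in spleen. All liver arrays lay above all spleen arrays, with liver array 7 just above spleen array 5. The difference was 0.57 (SE 0.16, 95% confidence interval 0.22 to 0.91, limma adjusted p = 0.507), a 1.48-fold ratio. In these 4 genes liver array 7 exceeded the spleen mean by 0.54 for H2-Ab1, 0.45 for H2-Aa, 0.25 for H2-Eb1 and 0.19 for Cd74. Liver arrays 2 and 3 averaged 1.16, 1.19, 0.67 and 0.75 above the same spleen means. The transcript clusters were TC1700002781.mm.1 for H2-Ab1, TC1700001905.mm.1 for H2-Aa, TC1700002782.mm.1 for H2-Eb1 and TC1800000617.mm.1 for Cd74.

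The 3 chains of the peptide editor H2-DM had differences of 0.14 to 0.28, each with a 95% confidence interval that included 0 and a limma adjusted p of 1. H2-DMa, the alpha chain, measured 8.02, 8.14 and 8.03 in liver and 7.98, 8.12 and 7.66 in spleen. Its groups overlapped, and its difference of 0.14 was 0.0112 without spleen array 6, the lowest array. H2-DMb1, a beta chain, measured 6.47, 6.46 and 6.07 in liver and 5.92, 6.35 and 5.89 in spleen (difference 0.28, 95% confidence interval -0.05 to 0.62). The profile had the form seen in H2-Eb1, with liver array 7 below spleen array 5. H2-DMb2, the other beta chain, measured 6.72, 6.99 and 6.72 in liver and 6.50, 6.91 and 6.49 in spleen (difference 0.18, -0.13 to 0.48). The 2 beta chain genes are close copies of each other, so signal of one may include transcripts of the other and their separate levels are uncertain.

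H2-O, the inhibitor of H2-DM known from B cells and some dendritic cells, did not follow the peptide-binding chains. H2-Oa, the alpha chain, measured 6.66, 6.84 and 6.59 in liver and 6.73, 6.84 and 6.35 in spleen, and H2-Ob, the beta chain, 8.30, 8.49 and 7.996 in liver and 8.34, 8.36 and 8.26 in spleen. The liver arrays enclosed all 3 spleen arrays in H2-Ob, and the spleen arrays enclosed all 3 liver arrays in H2-Oa. Differences were 0.06 for H2-Oa (95% confidence interval -0.25 to 0.36) and -0.06 for H2-Ob (-0.35 to 0.23), with limma adjusted p-values of 1. The sign was not stable in either. H2-Oa stood at -0.0169 once liver array 3 was left out and at -0.0915 once spleen array 6 was. H2-Ob stood at 0.0766 without liver array 7 and at 0.0245 with array weights.

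Ciita, without which class II genes are barely transcribed in presenting cells, measured 6.31, 6.40 and 6.31 in liver and 6.09, 6.41 and 6.19 in spleen. The liver arrays lay close together, and spleen array 5 was the highest of all 6. Its difference was 0.11 (SE 0.12, 95% confidence interval -0.15 to 0.36, limma adjusted p = 1), with an upper bound of 1.29-fold on the ratio. Averaged by role, the log2 difference was 0.75 over the 3 peptide-binding chains and Cd74, 0.20 over the H2-DM chains and -0.0005 over the H2-O chains, a comparison described here without a test.

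**Figure D3:**
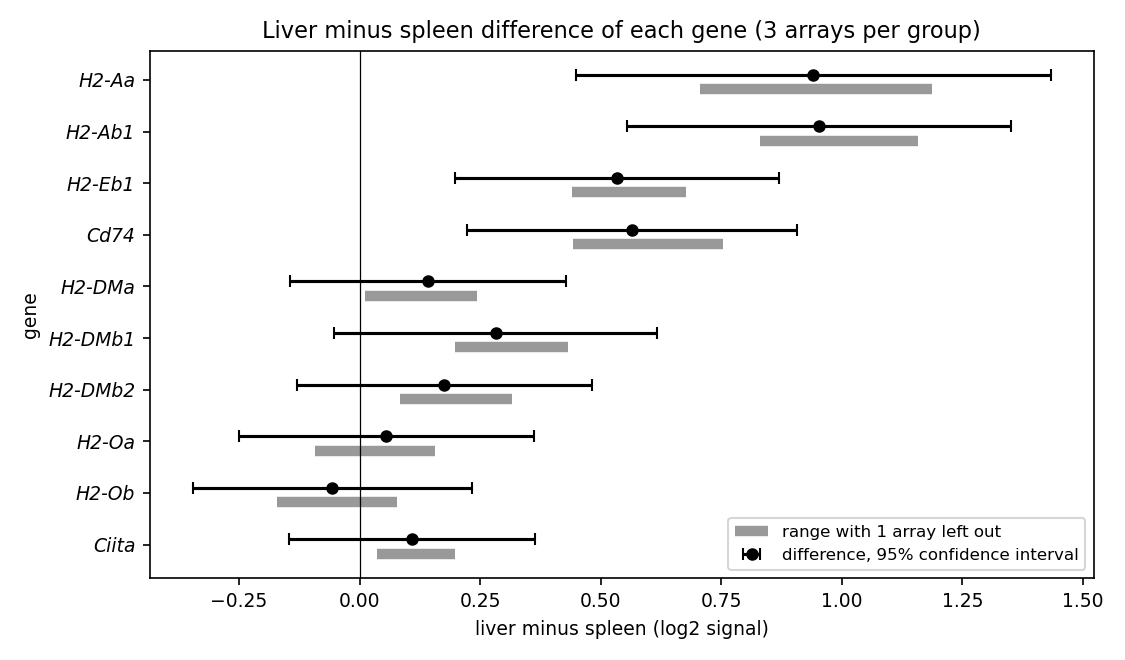
Liver minus spleen difference in log2 signal for each class II gene (points, with 95% confidence intervals from limma, 3 arrays per group) and the range of that difference when 1 array is left out (grey bars). The intervals of H2-Aa, H2-Ab1, H2-Eb1 and Cd74 lie above 0 and the other 6 include it; the grey bars of H2-Oa and H2-Ob cross 0.

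The members shared several features of array order, which the upper quartile of all genes also had. This quartile was lowest on spleen array 6 at 7.42 and highest on liver array 3 at 7.60. The 95th percentile of all genes had another order, highest on spleen array 4 at 10.03 and lowest on liver array 7 at 9.87. Among the members, spleen array 5 was the highest spleen array in all 10, spleen array 6 was the lowest of the 6 arrays in 8, and liver array 2 or 3 was the highest in 8. Liver array 7 lay below both other liver arrays in 9. Spleen array 5 also had the highest background rows, at a mean of 4.55 beside 4.09 to 4.34 on the other arrays, and the highest median over all rows, 5.90 beside 5.68 to 5.78; its part in the members' levels was not tested. After array medians were subtracted, and after quantile normalization or cyclic loess, 5 members had all liver arrays above all spleen arrays, beside 3.18%, 6.06% and 5.84% of all genes. Without spleen array 5 it was 8 members, beside 14.9% of all genes, and without liver array 7 it was 5, beside 13.7%.

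The arrays also fell into sets that cross the organs, by the levels of 2 genes outside the class II family. Liver arrays 2 and 3 and spleen array 6 had Habp2 at 8.19 to 8.44 and Ctse at 8.67 to 8.76, and the other 3 arrays had Habp2 at 5.51 to 5.73 and Ctse at 11.1 to 11.3. No label names these sets. Within the first, liver arrays 2 and 3 exceeded spleen array 6 by 1.37 for H2-Ab1, 1.66 for H2-Aa, 0.86 for H2-Eb1 and 0.90 for Cd74. Within the second, liver array 7 exceeded the mean of spleen arrays 4 and 5 by 0.44, 0.21, 0.16 and 0.12. The direction was thus the same in both sets for these 4 genes, although the second set rests on liver array 7 alone for the liver. Ciita, at 0.16 and 0.06, and H2-DMb2, at 0.36 and 0.01, were positive in both sets as well. H2-DMa, H2-DMb1, H2-Oa and H2-Ob were at -0.02, -0.07, -0.20 and -0.35 in the second. Likeness of arrays over all genes did not follow these sets. Spleen arrays 4 and 5, of the same set, were the least alike pair, with an SD of 0.281 for their log2 difference. For liver array 7 this SD was 0.198 with spleen array 6, of the other set, and 0.233 and 0.237 with spleen arrays 4 and 5. Liver arrays 2 and 3 were the most alike pair of all arrays, with an SD of 0.149 for their log2 difference over all genes, beside 0.194 to 0.281 for other pairs. With these 2 arrays averaged as 1 replicate, the median member difference was 0.184 and no member passed limma, beside 0.0257% of all genes.

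In their order along chromosome 17, the differences of the listed genes were concentrated in 3 neighbours. H2-Ab1, H2-Aa and H2-Eb1 follow one another, and H2-Ob and H2-Eb2 border them at -0.06 and -0.14. Of 8 other genes of the region, none passed limma at the adjusted threshold, 1 was higher in liver at an unadjusted p under 0.05 and none lower, and their median difference was 0.06. The largest differences were those of the peptide transporter Tap1 at 0.25 and the immunoproteasome subunits Psmb8 at 0.22 and Psmb9 at 0.18, which serve class I presentation. Ciita lies on chromosome 16 and Cd74 on chromosome 18.

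**Figure D4:**
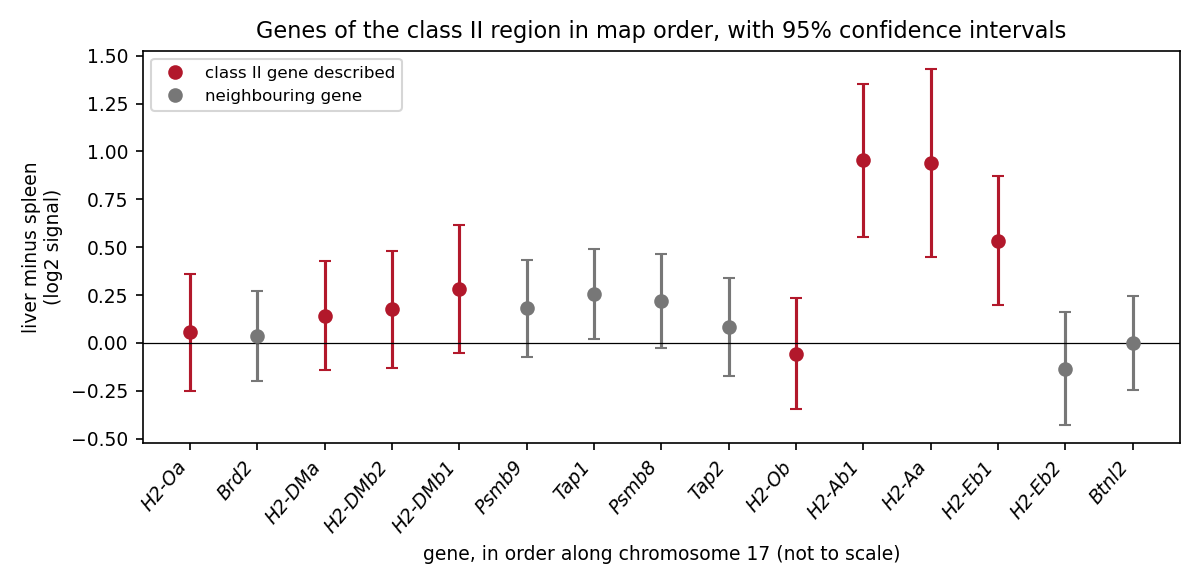
Liver minus spleen difference in log2 signal, with 95% confidence intervals, for listed genes of the class II region in their order along chromosome 17, members in red and other genes in grey. H2-Ab1, H2-Aa and H2-Eb1 stand at 0.95, 0.94 and 0.53, between H2-Ob at -0.06 and H2-Eb2 at -0.14. H2-Ea-ps, which the text counts among the other genes of the region, is not drawn.

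The factors that act on class II promoters differed little. Of 11 genes of the promoter complex, which include the RFX subunits, the NF-Y subunits and coactivators, none passed, with or without adjustment for multiple tests, and the median difference was 0.06. Rfx5, the large RFX subunit, was at -0.16, and the NF-Y subunits Nfyb and Nfya were at 0.13 and 0.12. Of 8 genes of the route by which interferon gamma induces Ciita, none passed at the adjusted threshold, while at an unadjusted p under 0.05 1 was higher and 1 lower in liver. Ifngr2, the signalling chain of the interferon gamma receptor, was at -0.45 (limma adjusted p = 0.716) and the kinase Jak2 at -0.15.

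Endosomal genes linked to class II loading had positive differences, several of them close to 0, without passing the test. All 10 listed genes had a positive difference, beside 42.3% of all genes, with a median of 0.20 and a range of 0.03 to 0.53. Of these, 3 were higher at an unadjusted limma p under 0.05, against 2.09% of all genes. Ifi30, a thiol reductase that unfolds antigen, measured 9.37, 9.40 and 9.10 in liver and 8.95, 8.81 and 8.51 in spleen, with no overlap (difference 0.53, limma adjusted p = 0.405). Ctsh, a lysosomal aminopeptidase, was at 0.51 (limma adjusted p = 0.365) and the carboxypeptidase Ctsz at 0.31. Ctss, the protease known to complete the removal of the invariant chain in presenting cells, was at 0.06.

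Genes of class II turnover and of partner molecules gave no member above the adjusted threshold. Cd83, which protects class II from ubiquitination, measured 7.25, 7.25 and 7.19 in liver and 7.84, 7.92 and 7.45 in spleen, so that each liver array lay below every spleen array (difference -0.50, limma adjusted p = 0.435), a pattern of 3.09% of all genes. The ubiquitin ligases March1 and March8 were at 0.13 and -0.11. The receptors that bind class II, Cd4 and Lag3, were at 0.09 and 0.03. Of 6 costimulatory molecules of presenting cells none passed, with or without adjustment. Cd80, Cd274 and Cd86 were at 0.16, 0.10 and -0.08.

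Several dendritic cell markers were, like the peptide-binding chains, highest on liver arrays 2 and 3, which was not particular to them. With each gene centred on its mean over the 6 arrays, the conventional dendritic cell list averaged 0.16 and 0.23 on these arrays. The monocyte list described below averaged 0.26 and 0.23. Of 12 conventional dendritic cell genes none passed at the adjusted threshold, 5 had all liver arrays above all spleen arrays (3.11% of all genes) and none the reverse (3.09%), and the median difference was 0.13. Cd209a, a C-type lectin of dendritic cells, measured 6.84, 7.06 and 6.32 in liver and 5.50, 5.84 and 5.62 in spleen (difference 1.08, limma adjusted p = 0.0746). Clec9a, a receptor of cross-presenting dendritic cells, measured 6.30, 6.37 and 5.51 in liver and 5.20, 5.10 and 5.04 in spleen (difference 0.94). Both were highest on liver arrays 2 and 3 and lower on liver array 7. The differences of Batf3, Sirpa and Clec10a were -0.01, 0.13 and 0.07. Of the 12 genes, 9 had a positive difference, beside 42.3% of all genes, and the lowest was -0.12.

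Of 8 plasmacytoid dendritic cell genes, 4 had all liver arrays above all spleen arrays (3.11% of all genes), none passed at the adjusted threshold, and the median difference was 0.26. Siglech, their defining lectin, measured 7.12, 7.04 and 6.14 in liver and 5.68, 5.74 and 5.88 in spleen, and Klk1 was at 1.03; Runx2, Pacsin1 and Lair1 were at 0.27, -0.13 and 0.53. Summed on the linear scale, the signal of the conventional list ran from 873 to 1008 in liver and 730 to 916 in spleen, and that of the plasmacytoid list from 972 to 1234 and 840 to 998. No listed marker can be at 0, since each array signal includes background. The part of dendritic cell RNA in the class II difference was not tested. In bulk RNA, fewer cells of a type and less RNA per cell cannot be told apart.

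Markers of B cells, macrophages, monocytes and endothelium were read in the same way. Of 14 B cell genes none passed at the adjusted threshold, 2 had all liver arrays above all spleen arrays (3.11% of all genes), and the median difference was 0.13. The B cell surface gene Ms4a1 was at 0.38 and Bank1 at 0.36, and Cd79b, Cd72 and Cd79a were at 0.22, 0.08 and 0.16, with a summed signal of 1338 to 1534 in liver and 1209 to 1460 in spleen. Of 12 macrophage genes, Spic fell in liver (difference -0.97, limma adjusted p = 0.0425), where its level of 4.23 to 4.48 was near that of the background rows, and it no longer passed after any of the 3 rescalings. The median of the macrophage list was -0.08, with Vsig4 at 0.42, C1qa at 0.07, Clec4f at -0.11 and C1qc at -0.06 (summed signal 554 to 599 in liver and 554 to 713 in spleen). Of 8 monocyte genes none passed at the adjusted threshold and 3 had all liver arrays above all spleen arrays (3.11% of all genes) and 1 the reverse (3.09%). Lyz2, the lysozyme of myeloid cells, measured 8.16, 8.10 and 7.31 in liver and 6.27, 6.74 and 6.37 in spleen (difference 1.39, limma adjusted p = 0.0659), with a summed signal of the list of 2384 to 3049 in liver and 2041 to 2272 in spleen. Ccr2, Ly6c2 and Ms4a6c were at 0.48, 0.44 and -0.05. These 3 had means of 9.97, 9.04 and 9.12, beside 5.04 to 7.16 for the other listed monocyte genes. The summed signal of the monocyte list thus rests mostly on them. Of 8 genes of liver sinusoidal endothelium none passed, with or without adjustment, the median was 0.02, and Pecam1, Oit3 and Stab1 were at -0.19, 0.13 and 0.02 (summed signal 869 to 973 and 944 to 1055). Pecam1, with a mean of 9.20, gave most of this sum.

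Genes of the labelled cell type had similar levels in both organs. The cells were isolated as Treg and no sample of other cells carries a label, so purity was not tested. Foxp3 measured 9.31 to 9.57 on the liver arrays and 9.40 to 9.57 on the spleen arrays, and the summed signal of 8 Treg genes was 17103 to 18308 in liver and 17114 to 18525 in spleen. The inhibitory receptor Ctla4, the T cell receptor subunit Cd3e and the transcription factor Ikzf2 differed by 0.03, 0.00205 and -0.00601, and Tnfrsf18 by -0.12. None of the 8 passed, with or without adjustment.

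**Figure D5:**
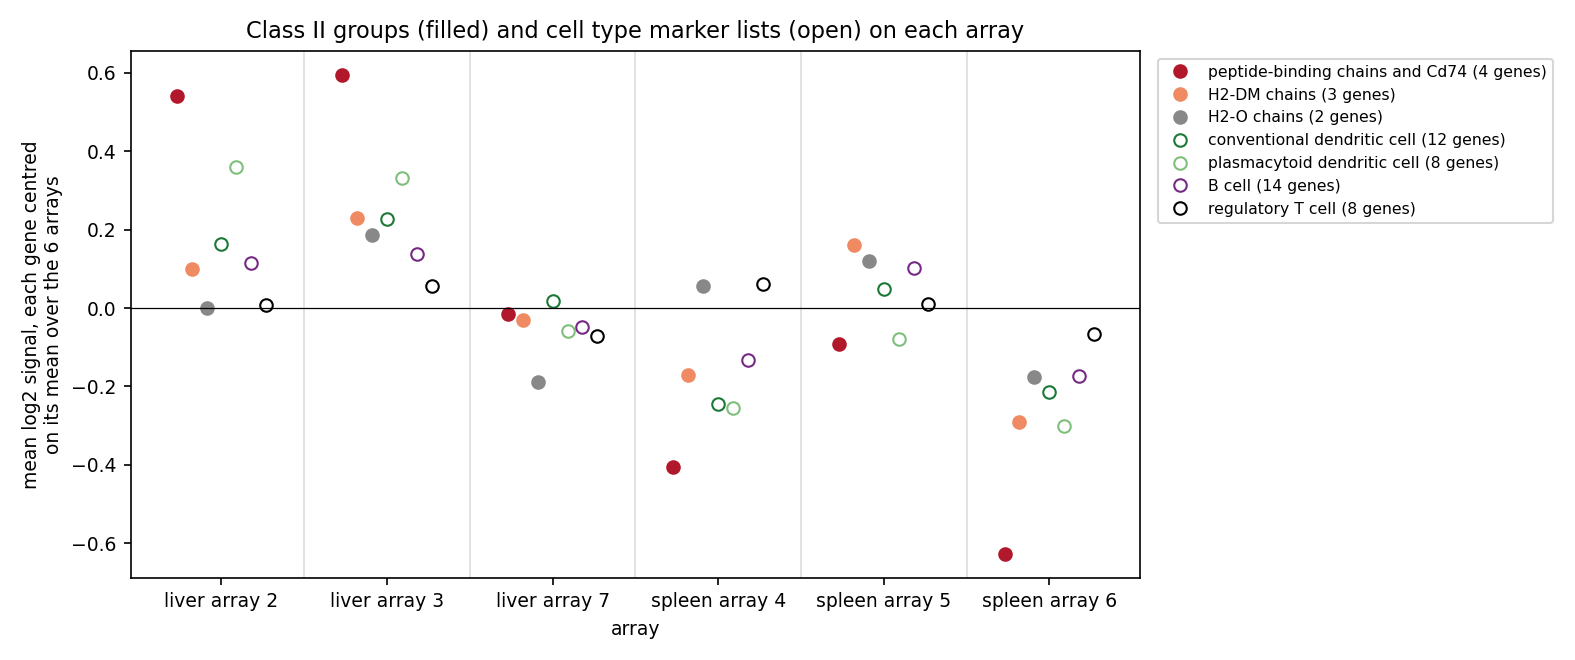
Mean log2 signal per array, each gene centred on its own mean over the 6 arrays, for the class II role groups (filled) and for marker lists of dendritic cells, B cells and Treg (open). On liver arrays 2 and 3 the peptide-binding chains and Cd74 stand at 0.54 and 0.60 and the plasmacytoid dendritic cell list at 0.36 and 0.33. The monocyte list, which is not drawn, was at 0.26 and 0.23 on these arrays. The Treg list stays between -0.07 and 0.06 on every array.

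The genes whose profile over the 6 arrays was most like the mean profile of the members were Parp12, Gm13522, Gm14446, Irgm1, Cxcr3, Gm14091, Gm9311 and Ighv1-5, out of 20176 other genes with a mean of at least 6. Likeness was the root mean square distance between centred log2 profiles, which was 0.03 for Parp12 and up to 0.07 for the other 7, beside 0.25 for the median gene compared. The members' own distances from their mean profile ran from 0.08 to 0.34. Parp12, an ADP-ribosyltransferase induced by interferon, measured 7.73, 7.82 and 7.41 in liver and 7.27, 7.51 and 7.18 in spleen. Irgm1, an interferon-inducible GTPase, measured 9.12, 9.36 and 8.86 in liver and 8.76, 8.87 and 8.53 in spleen. In both, liver arrays 2 and 3 were highest and spleen array 6 lowest, an order that follows from choosing them by likeness to the members. A link of the members to interferon was not tested.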

How the data were processed

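RNA of 3 liver and 3 spleen Treg samples was measured on Affymetrix arrays, 1 array a sample. The deposited values are log2 signals per transcript cluster, which the authors made with RMA; the submitters' processing notes name Affymetrix Expression Console for this. The genome build is not given in the sources used here. RMA compresses differences of dim genes. The annotated table was used, and the second deposited table held identical values. Of 72688 rows, 39514 had 1 symbol; for 526 symbols with several rows the row with the highest mean was kept, which gave 38854 genes. Adgre1 is listed as Emr1.

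Liver was compared with spleen by limma 3.58.1 in R 4.3.3 (lmFit, eBayes, two-sided, no covariate), Benjamini-Hochberg adjusted over all genes, with a threshold of 0.05; limma gave every adjusted p and 95% confidence interval. The procedure was tested on simulated data with independent noise. Recovery was required there only for log2 differences of 2, which is larger than the difference of any member. An exact permutation test of 3 arrays against 3 cannot give a two-sided p under 0.1. The number of arrays limits precision. Every member is named; of each pathway list the 3 genes with the largest absolute difference (Ctss was added after its values were seen); of each cell type list called genes, the 3 with the highest mean and the 2 with the largest absolute difference; H2-Ea-ps, H2-Eb2 and Foxp3 were named for their roles. One gene that this rule would name is not reported here. Members and lists were chosen with earlier results of these data known.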

Additional observations from a re-analysis of the deposited data

How the results depend on the processing

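No paired analysis was possible because the labels give the liver and spleen arrays no number in common. The differences of H2-Aa, H2-Ab1, H2-Eb1, Cd74, Ciita and the 3 H2-DM chains kept their sign under all 17 alternatives. In some of these the sign could not change, because the members' differences are the same as in the main fit. These are the filters on dim genes, trend and robust estimation, averaged rows of a symbol and the second deposited table. No member passed limma under 15 of these. With array weights 5 passed (H2-Aa, H2-Ab1, H2-Eb1, Cd74 and H2-DMb1), in a fit that called 3533 genes (9.09%) with a weight of 9.34 for liver array 2 and 0.188 for spleen array 5. With 1 array left out 0 to 1 passed, the 1 being H2-Ab1 without liver array 7. The members with all liver arrays above all spleen arrays numbered 5 after array medians were subtracted, after quantile normalization and after cyclic loess, and 3 to 8 with 1 array left out, 8 being without spleen array 5. The members' median was 0.152 to 0.374 with 1 array left out. H2-Oa ran from -0.0915 to 0.1567 with 1 array left out, at -0.0169 without liver array 3 and lowest without spleen array 6. H2-Ob ran from -0.1717 to 0.0766, highest without liver array 7, and was at 0.0245 with array weights; the cause was not tested. Over all genes, limma called 8 genes, 18 without the lower 50% by mean, 21 without means under 5, 27 with trend and robust estimation, 0 after each of the 3 rescalings, and 0 to 33 with 1 array left out. Chosen after seeing the data, blocking arrays by their Habp2 and Ctse set gave 78 genes, no member among them, and a members' median of 0.228. All members lay above the median gene in mean signal, so filters on dim genes removed none.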
